A study of Rattus norvegicus with 18 samples.

Results

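Hox genes encode homeodomain transcription factors that lie in 4 clusters, HoxA to HoxD, and are numbered by paralog group from 1 to 13. They were followed here as markers of how far a dissection of the ventral tegmental area reached backwards. The members are all genes of the files whose rat symbol is Hox, a cluster letter from a to d and a number, which gave 39 of 38445 genes, with 11 in HoxA, 10 in HoxB, 9 in HoxC and 9 in HoxD. The ventral tegmental area lies in the floor of the midbrain and is home to dopamine neurons that serve reward. It was taken from 18 adult male wild-type Sprague-Dawley rats, 1 stranded mRNA library per rat, in 3 groups of 6. Withdrawal rats (numbered 13 to 18) had lived for 15 or 16 days on a Lieber-DeCarli liquid diet that held ethanol at 9% v/v and were taken 24 h after it ended. Chronic ethanol rats (7 to 12) had the same diet and were taken at 0 h of withdrawal. Control rats (1 to 6) had the control version of the liquid diet. The groups thus share sex and strain, and differ in ethanol and in the time since it ended.

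In the embryo Hox genes are switched on along the body in the order of their places in a cluster, so that the front border of a gene's expression lies farther back as its paralog number rises. The forebrain and midbrain lie in front of all of these borders. The first groups begin within the hindbrain, groups 4 and 5 towards its rear, and the later groups in the spinal cord. Retinoic acid helps to open the clusters, Polycomb proteins keep them silent elsewhere, and cofactors of the Pbx and Meis families bind DNA with the Hox proteins. Neurons and some glia of the adult hindbrain keep part of this code, which is why these genes can mark tissue from behind the midbrain in a dissection.

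Promoters are shown for Hoxc4, Hoxd4 and Hoxd3, the 3 members with the most counts in control rat 5 among those in the table of promoters after Hoxb3, which has no entry, and for Hoxd1, which lies beside Hoxd3 and did not follow it. Each is RefSeq's sequence on the plus strand of GRCr8, from 250 bases before to 50 after the gene's start. The capitals mark a match to a motif. The windows are chr7:136048809-136049108 for Hoxc4, chr3:80021636-80021935 for Hoxd4, chr3:80045876-80046175 for Hoxd3 and chr3:80072791-80073090 for Hoxd1.
Hoxc4: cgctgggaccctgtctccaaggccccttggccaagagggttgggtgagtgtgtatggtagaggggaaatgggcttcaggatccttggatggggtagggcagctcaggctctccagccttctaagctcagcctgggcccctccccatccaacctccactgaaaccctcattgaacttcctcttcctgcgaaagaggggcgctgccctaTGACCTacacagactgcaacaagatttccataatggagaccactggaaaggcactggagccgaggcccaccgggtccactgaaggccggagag
Hoxd4: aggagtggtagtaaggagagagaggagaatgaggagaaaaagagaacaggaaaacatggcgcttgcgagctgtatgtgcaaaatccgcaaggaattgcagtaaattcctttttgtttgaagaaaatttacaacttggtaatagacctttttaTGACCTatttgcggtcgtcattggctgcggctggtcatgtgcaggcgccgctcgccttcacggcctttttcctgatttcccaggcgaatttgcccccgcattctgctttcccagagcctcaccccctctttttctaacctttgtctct
Hoxd3: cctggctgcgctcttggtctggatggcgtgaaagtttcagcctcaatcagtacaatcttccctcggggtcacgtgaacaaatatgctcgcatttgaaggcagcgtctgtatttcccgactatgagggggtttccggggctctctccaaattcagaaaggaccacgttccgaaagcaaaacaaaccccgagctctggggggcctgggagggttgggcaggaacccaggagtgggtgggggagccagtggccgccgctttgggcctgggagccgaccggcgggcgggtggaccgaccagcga
Hoxd1: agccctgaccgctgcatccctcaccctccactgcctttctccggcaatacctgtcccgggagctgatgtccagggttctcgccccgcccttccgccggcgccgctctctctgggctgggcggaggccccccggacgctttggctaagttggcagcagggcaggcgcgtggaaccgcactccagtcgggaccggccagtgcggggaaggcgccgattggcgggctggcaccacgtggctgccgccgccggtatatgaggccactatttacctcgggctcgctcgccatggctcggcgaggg
The motifs were TGATNNAT (bound by Pbx and Hox proteins together), TGACAG (bound by Meis proteins) and AGGTCA (a half-site of the retinoic acid receptor), searched on both strands. AGGTCA was found on the minus strand of Hoxc4, at bases 208 to 213 of the window, and of Hoxd4, at bases 153 to 158. The Hoxd3 and Hoxd1 windows held no match to these letters. Among all 33469 promoters of the table, AGGTCA was in 16.2%, TGACAG in 19.0% and TGATNNAT in 9.10%. Of the 21 promoters of 20 Hox genes, 3, 4 and 4 held them in the same order. GC content was 59.0% for Hoxc4, 47.3% for Hoxd4, 60.7% for Hoxd3 and 70.0% for Hoxd1. A match is a description of the letters and not a binding site.

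Values are counts of read pairs per gene, given as CPM, the count relative to the library total after scaling with edgeR's TMM factors. The library totals ran between 29.6 and 45.1 M counts. A gene at 0 may have had up to 3 counts at 95% confidence, which is a floor of 0.0666 to 0.104 CPM depending on the library. Without molecular identifiers on the reads, the floor and the intervals below describe counting error alone. Levels of different genes are compared only as RPKM, which divides the CPM by the exon length of the gene in kilobases. The labelled tissue was checked with 10 markers of midbrain dopamine neurons. All 10 were at 1 CPM or more in every library but that of withdrawal rat 17, where 8 were. Their summed level was 410 to 3021 CPM in withdrawal rats, 470 to 3546 CPM in chronic ethanol rats and 1176 to 3630 CPM in control rats. The lowest 2 sums were those of withdrawal rat 17 (410 CPM) and chronic ethanol rat 8 (470 CPM). Otx2, a midbrain and forebrain patterning factor, had 0.162 CPM in withdrawal rat 13, 0.0472 CPM in chronic ethanol rat 11 and 0 elsewhere. Whether its gene model could be read in these counts was not tested, so its level is no check of the tissue.

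Some libraries stood apart. Chronic ethanol rat 8 and control rat 5 stood apart from the other 16 libraries in their Hox transcripts, and withdrawal rat 13 stood apart in genes of the pineal gland, with a pineal list sum of 15872 CPM against 2.59 to 9.85 CPM in the other 17. Chronic ethanol rat 7 stood apart in a list of hypothalamus genes, which summed to 336 CPM against 3.89 to 13.8 CPM in the other 17. Because of their Hox level, the comparisons of Hox genes between groups are given with and without rats 8 and 5.

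The HoxA members could not be read. All 11 members were listed at 0 in all 18 libraries, including those in which the other clusters were plainly present. Per the annotation in the files, 5 members lie on chromosome 4 and 6 on an unplaced scaffold, and 26 other gene models lie within these spans. The exon length of 5 members (Hoxa3, Hoxa4, Hoxa5, Hoxa9 and Hoxa10) was repeated exactly by another model there. Read pairs with more than 1 matching place or gene were dropped by the authors' settings, so a 0 in HoxA does not show that the gene was silent. Of the 26 other models, 23 had no count in any library, and the highest count was 11, in chronic ethanol rat 8. Nearly all of these counts lay in 2 unnamed models of 3450 exon bases, the exon length of Hoxa5. Each had 11 counts in chronic ethanol rat 8, 6 in control rat 5 and at most 2 in any other library. Evx1, a homeobox gene beside HoxA, was also listed at 0 throughout. HoxA members are left out of what follows, and the 28 members of HoxB, HoxC and HoxD remain.

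Hox transcripts of groups 2 to 5 were abundant in 2 libraries, chronic ethanol rat 8 and control rat 5, and scarce or not detected in the other 16. Their summed level was 80.6 CPM in chronic ethanol rat 8 and 108 CPM in control rat 5. In withdrawal rats it was 3.77, 3.17, 2.40, 5.89 and 1.59 CPM in rats 14 to 18 and 0.0540 CPM in rat 13, the lowest of all libraries. No withdrawal rat came near the high pair. In the other chronic ethanol rats it was 0.286, 0.192, 0.301, 0.945 and 0.133 CPM in rats 7, 9, 10, 11 and 12. In the other control rats it was 0.484, 1.43, 0.493, 1.86 and 0.177 CPM in rats 1, 2, 3, 4 and 6. The levels thus fell into a high pair, a low range that held withdrawal rats 14 to 18 and control rats 2 and 4, and 9 libraries under 1 CPM, of which chronic ethanol rat 11 had the most. A bulk level cannot tell more cells of a type from more RNA per cell.

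Counting members set the same 2 libraries apart. All 8 HoxB, HoxC and HoxD members of groups 2 to 5 had more than 3 counts in chronic ethanol rat 8 and in control rat 5. In withdrawal rats 14 to 18 the number was 6, 5, 5, 5 and 4, and in rat 13 it was 0. No withdrawal rat thus held all 8. In the other chronic ethanol rats it was 3 in rat 11, 1 in rat 7 and 0 in rats 9, 10 and 12. In the other control rats it was 5 in rats 2 and 4, 2 in rat 1, 1 in rat 3 and 0 in rat 6. At 1 CPM or more, chronic ethanol rat 8 and control rat 5 held 8 members each, and no other library held more than 2. Of all 39 members, 8 reached 1 CPM in some library (Hoxd1, Hoxb2, Hoxb3, Hoxd3, Hoxb4, Hoxc4, Hoxd4 and Hoxb5) and 31 in none.

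**Figure D1:**
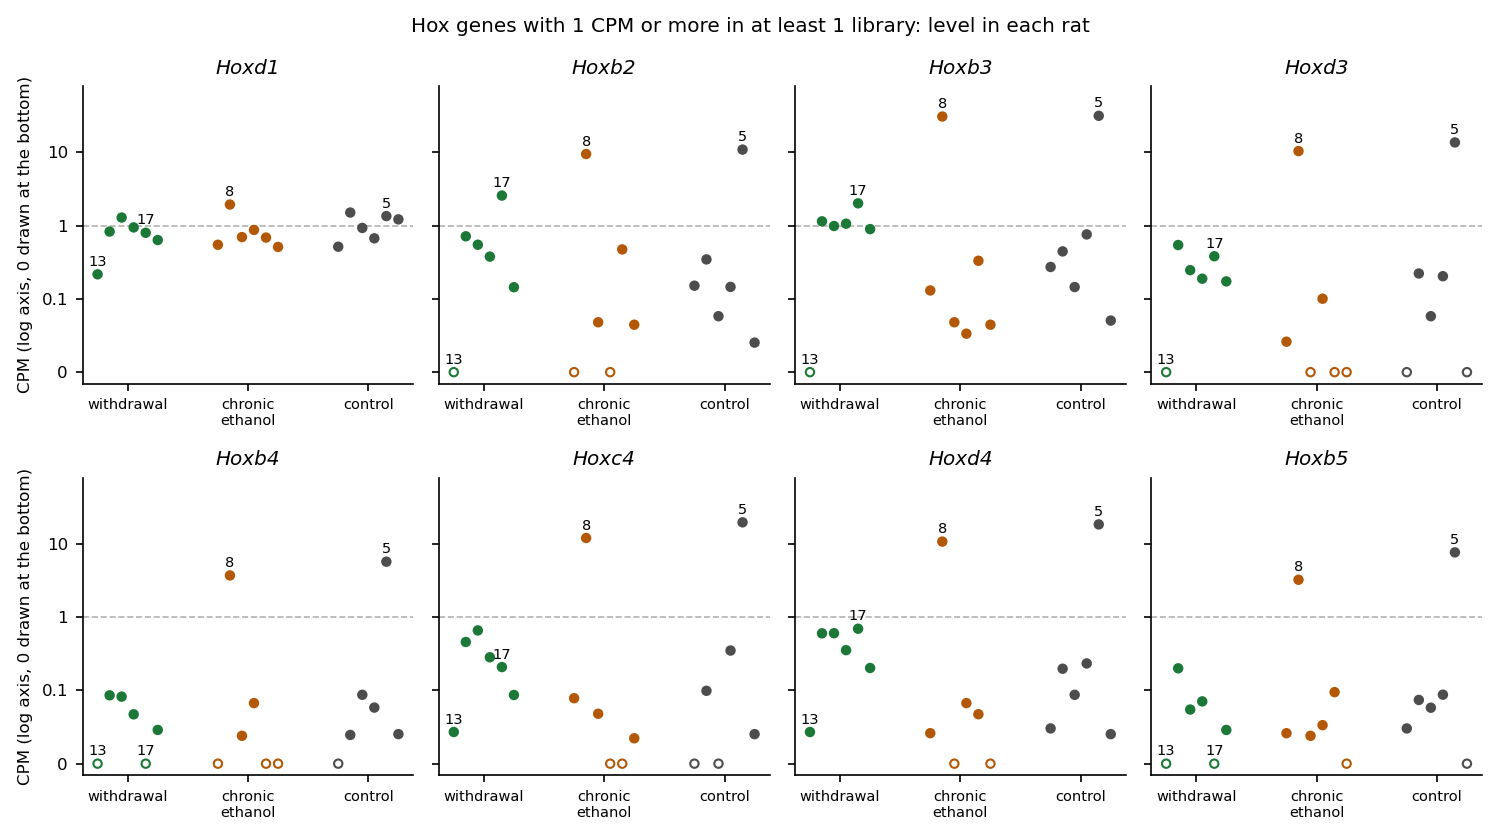
Level of the 8 Hox genes that reached 1 CPM, in CPM on a log axis, with 1 point per rat and 6 rats per group (open points are at 0 counts, the dashed line is 1 CPM, and rats 13, 17, 8 and 5 are numbered). Chronic ethanol rat 8 and control rat 5 are the highest points of their groups for the 7 genes of groups 2 to 5, while the Hoxd1 points of the groups lie close together.

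Group 2 was represented by Hoxb2 (chr10:84200859-84203065, plus strand, Rnor_6.0), which in the mouse is needed for the facial motor neurons of the hindbrain. It had a lowest, median and highest level of 0, 0.462 and 2.56 CPM in withdrawal rats, 0, 0.0462 and 9.45 CPM in chronic ethanol rats, and 0.0253, 0.148 and 10.9 CPM in control rats. The highest values were those of withdrawal rat 17, chronic ethanol rat 8 and control rat 5, and the groups overlapped. Per length Hoxb2 was the highest member in these same 3 libraries, at 1.75, 6.44 and 7.41 RPKM.

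Group 3 held the member with the most counts, Hoxb3 (chr10:84170629-84196823, plus strand). Hoxb3 had 0, 1.02 and 2.01 CPM (lowest, median and highest) in withdrawal rats, 0.0335, 0.0890 and 30.7 CPM in chronic ethanol rats, and 0.0506, 0.358 and 31.4 CPM in control rats. Withdrawal rats 14 to 18 lay between 0.893 and 2.01 CPM, above every chronic ethanol rat but rat 8 and every control rat but rat 5, and withdrawal rat 13 was at 0. Hoxd3 (chr3:61650569-61670285, plus strand), its paralog in HoxD, had 0, 0.217 and 0.542 CPM in withdrawal rats, 0, 0.0130 and 10.4 CPM in chronic ethanol rats, and 0, 0.131 and 13.6 CPM in control rats. Its order of libraries was like that of Hoxb3 at the top, with rats 5 and 8 far above the rest. In the mouse the group 3 genes act together in forming the rear hindbrain.

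Group 4 held Hoxb4 (chr10:84167331-84169913), Hoxc4 (chr7:144646605-144652589) and Hoxd4 (chr3:61634005-61653581), all on the plus strand, whose front borders lie in the rear hindbrain. Hoxc4 had 0.0270, 0.245 and 0.656 CPM (lowest, median and highest) in withdrawal rats, 0, 0.0351 and 12.0 CPM in chronic ethanol rats, and 0, 0.0619 and 19.6 CPM in control rats. Hoxd4 had 0.0270, 0.476 and 0.692 CPM in withdrawal rats, 0, 0.0366 and 10.7 CPM in chronic ethanol rats, and 0.0253, 0.142 and 18.3 CPM in control rats. Hoxb4 was scarcer, with 0, 0.0380 and 0.0856 CPM in withdrawal rats, 0, 0.0120 and 3.69 CPM in chronic ethanol rats, and 0, 0.0417 and 5.69 CPM in control rats. Again chronic ethanol rat 8 and control rat 5 were the highest of their groups for every gene, and outside them Hoxb4 had at most 3 counts in a library. Hoxd3 and Hoxd4 share some exon bases on the same strand, 2.13% of the Hoxd3 exons and 1.41% of the Hoxd4 exons (in Hoxd4 also with a miRNA gene), and pairs that fell on both genes were not counted.

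Group 5 marked the rear edge of what was found. Hoxb5 (chr10:84152152-84154360, plus strand) had 0, 0.0418 and 0.200 CPM (lowest, median and highest) in withdrawal rats, 0, 0.0298 and 3.22 CPM in chronic ethanol rats, and 0, 0.0660 and 7.62 CPM in control rats. Hoxc5 (chr7:144628120-144631542, plus strand) had 20 counts in chronic ethanol rat 8, 36 in control rat 5 and at most 1 in any other library. Groups 6 to 13 hold 18 members in HoxB, HoxC and HoxD, and none reached 1 CPM. The highest was Hoxc6 in control rat 5, with 15 counts or 0.354 CPM on a gene model of 13082 exon bases, which is 0.0271 RPKM. In chronic ethanol rat 8 Hoxc6 was at 0.198 CPM, within the 0.0719 to 0.288 CPM of the other 16 libraries. Besides Hoxc6, 3 members of these groups had more than 3 counts in some library, and none of them had its highest level in rats 8 or 5. These were Hoxd8 (highest 0.202 CPM, control rat 6), Hoxc13 (0.201 CPM, chronic ethanol rat 10) and Hoxd13 (0.0942 CPM, withdrawal rat 16). The 5 members at 0 in every library were Hoxb13, Hoxc9, Hoxd10, Hoxd11 and Hoxd12. The other 9, Hoxb6, Hoxb7, Hoxb8, Hoxb9, Hoxc8, Hoxc10, Hoxc11, Hoxc12 and Hoxd9, had at most 3 counts in any library. Summed over groups 6 to 13, the level was 0.273 CPM in chronic ethanol rat 8 and 0.401 CPM in control rat 5, within the 0.216 to 0.636 CPM of the other 16 libraries. Spinal paralog groups were thus not detectable above the level of the other libraries at this depth.

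At the front end, group 1 behaved differently. Hoxb1 (chr10:84214358-84215812, plus strand), a marker of one hindbrain segment in the embryo, had 4 counts in chronic ethanol rat 8, 11 in control rat 5 and 0 in the other 16 libraries, or 0.0992 and 0.260 CPM in those rats. Hoxd1 (chr3:61685619-61687758, plus strand) was the only member of HoxB, HoxC and HoxD groups 1 to 5 with more than 3 counts in all 18 libraries. It had 0.216, 0.812 and 1.29 CPM (lowest, median and highest) in withdrawal rats, 0.510, 0.690 and 1.93 CPM in chronic ethanol rats, and 0.514, 1.07 and 1.503 CPM in control rats. Chronic ethanol rat 8 had the most Hoxd1, but control rat 2, which had little of any other Hox gene, had more (1.503 CPM) than control rat 5 (1.35 CPM). Hoxd1 thus did not set the 2 high libraries apart as groups 2 to 5 did.

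**Figure D2:**
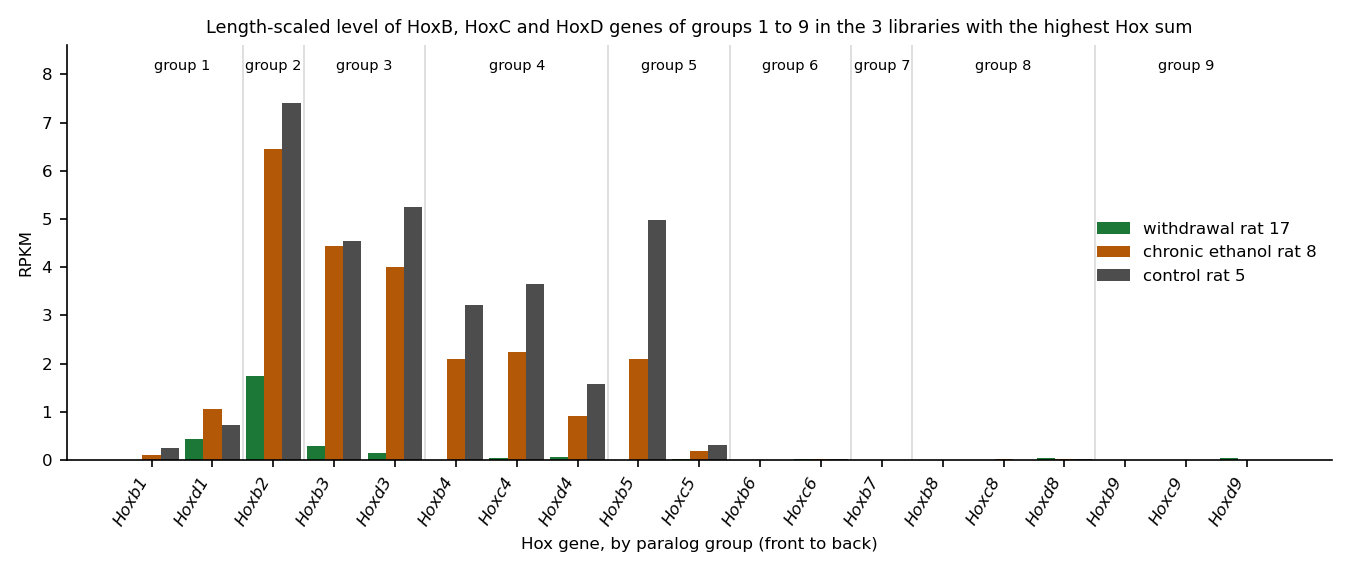
RPKM of each HoxB, HoxC and HoxD gene of paralog groups 1 to 9, ordered from the front to the rear group, in withdrawal rat 17, chronic ethanol rat 8 and control rat 5 (bars, 1 library each, no error). Bars stand over groups 1 to 5, Hoxb2 is the highest in each library, and groups 6 to 9 are at or near 0.

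Per length, Hoxb2 was the highest member in both high libraries. In chronic ethanol rat 8 the order was Hoxb2 (6.44 RPKM), Hoxb3 (4.44), Hoxd3 (4.01), Hoxc4 (2.23), Hoxb5 (2.10), Hoxb4 (2.09), Hoxd1 (1.06), Hoxd4 (0.922), Hoxc5 (0.181) and Hoxb1 (0.0973). In control rat 5 it was Hoxb2 (7.41 RPKM), Hoxd3 (5.26), Hoxb5 (4.97), Hoxb3 (4.54), Hoxc4 (3.65), Hoxb4 (3.22), Hoxd4 (1.58), Hoxd1 (0.735), Hoxc5 (0.311) and Hoxb1 (0.255). Hoxb5 thus stood in the fifth place in chronic ethanol rat 8 and in the third in control rat 5. Hoxd4 has a long gene model of 11594 exon bases, which lowers its RPKM if most of its transcripts are shorter.

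Within groups 2 to 5, the sums of the 2 high libraries differed more at the rear than at the front. The level in chronic ethanol rat 8 relative to control rat 5 was 0.870 for group 2 (95% counting interval 0.760 to 0.997), 0.913 for group 3 (0.855 to 0.975), 0.605 for group 4 (0.561 to 0.652) and 0.439 for group 5 (0.363 to 0.531). The intervals of groups 2 and 3 overlapped each other and lay above those of groups 4 and 5. The members of group 3 differed, with ratios of 0.978 for Hoxb3 (0.905 to 1.06) and 0.762 for Hoxd3 (0.672 to 0.865). The Hoxd3 interval overlapped that of Hoxb4 in group 4 (0.530 to 0.797). The ratio was 0.650 for Hoxb4, 0.612 for Hoxc4 and 0.583 for Hoxd4, and 0.423 for Hoxb5 and 0.584 for Hoxc5. The Hoxc5 interval was wide (0.338 to 1.01) and overlapped those of groups 2 and 3, so the group 5 value rested on Hoxb5. In group 1, Hoxd1 ran the other way, at 1.44 (1.02 to 2.02). Hoxb1, also of group 1, was lower in chronic ethanol rat 8 (4 counts, 0.0992 CPM) than in control rat 5 (11 counts, 0.260 CPM). These are 2 single rats of different groups, so the difference has no replicate check.

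The make-up of the Hox signal was also compared as shares of the counts of groups 2 to 5, in the 10 libraries with at least 20 such counts, with Wilson 95% intervals. Group 2 made up 43.5% (36.3 to 51.0) in withdrawal rat 17, 11.7% (10.7 to 12.9) in chronic ethanol rat 8 and 10.1% (9.22 to 11.0) in control rat 5. Chronic ethanol rat 11 was like withdrawal rat 17 in this share, with 20 of its 40 counts in group 2 (35.2 to 64.8%). In withdrawal rats 14, 15, 16 and 18 the share was 18.9, 17.2, 15.7 and 9.09%, and in control rats 2 and 4 it was 24.1 and 7.81%. Withdrawal rat 17 therefore held a Hox signal with more of the front group than either high library, beyond counting error. Its group 4 share was 15.3% (10.7 to 21.5), against 32.7% (31.1 to 34.4) in chronic ethanol rat 8 and 40.4% (39.0 to 41.8) in control rat 5. Its group 5 share was 0.588% (1 of 170 counts, 0.104 to 3.26%), against 4.62% in chronic ethanol rat 8 and 7.85% in control rat 5. Chronic ethanol rat 11 was unlike it here, with 4 of 40 counts in group 5 (3.96 to 23.1%). In withdrawal rats 14, 15 and 16 the group 4 share was 30.3, 42.2 and 28.4%, and withdrawal rat 18 had 11 of 55 counts there (11.6 to 32.4%). In control rats 2 and 4 it was 22.4 and 34.4%.

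**Figure D3:**
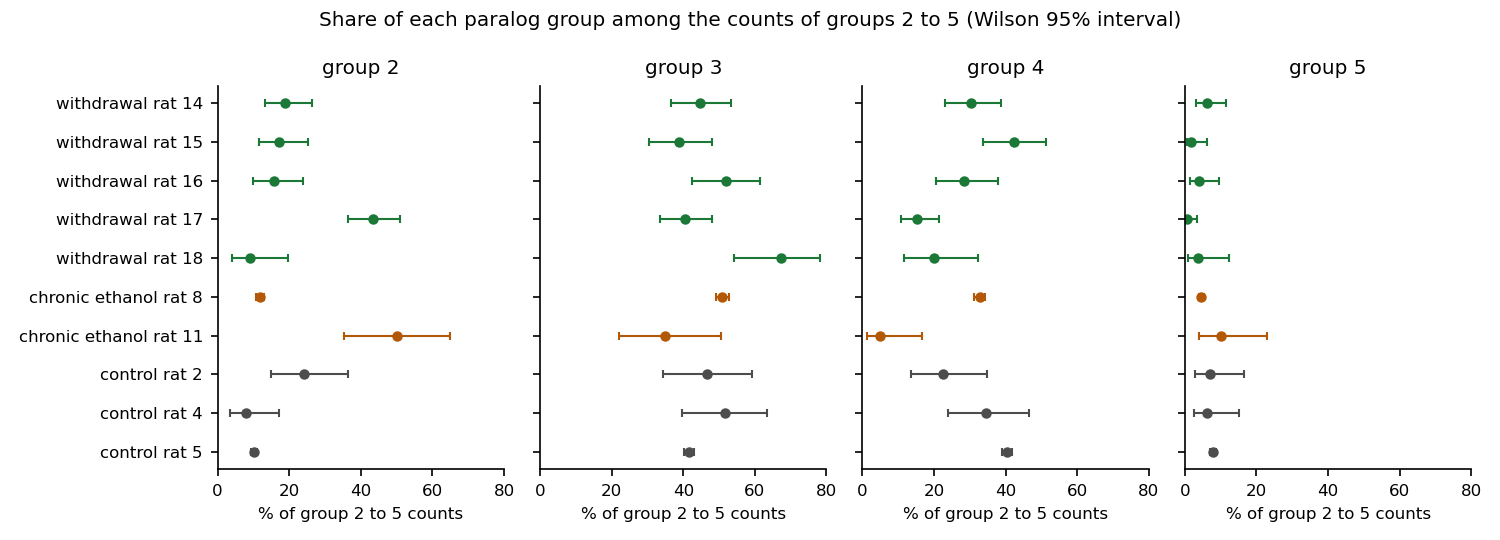
Share of paralog groups 2, 3, 4 and 5 among the HoxB, HoxC and HoxD counts of those groups, in percent with Wilson 95% intervals, for the 10 libraries with enough counts. Withdrawal rat 17 and chronic ethanol rat 11 have the largest group 2 shares, 74 of 170 and 20 of 40 counts, and the smallest group 4 shares.

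Of the other genes within HoxB, HoxC and HoxD, an antisense lncRNA set rats 8 and 5 apart as the members beside it did. The antisense lncRNA LOC102550580 between Hoxb2 and Hoxb3 (chr10:84195727-84199531, minus strand) had 93 counts in chronic ethanol rat 8, 110 in control rat 5 and at most 7 elsewhere. An unnamed gene on the minus strand within the span of Hoxb3 (chr10:84192284-84192880) had 12 counts in withdrawal rat 17, 32 in chronic ethanol rat 8, 21 in control rat 5 and at most 2 elsewhere. That is 0.415, 0.793 and 0.496 CPM in the same order, so withdrawal rat 17 lay close to control rat 5. For Hoxb3 these rats were far apart, at 2.01 and 31.4 CPM. The counting used strand, so the pairs of both minus-strand genes are kept apart from those of Hoxb3. The 5 named miRNA genes in HoxB, HoxC and HoxD had at most 3 counts, in libraries that do not capture small RNA. Of the 14 genes that flank the clusters, 10 had enough counts to be tested, and their summed level was 536 to 644 CPM in withdrawal rats, 523 to 590 CPM in chronic ethanol rats and 546 to 591 CPM in control rats. This sum is carried by the abundant genes of the list. Evx2, a homeobox gene beside HoxD, was highest in withdrawal rat 17 (2.49 CPM) and was at 0.843 CPM in chronic ethanol rat 8 and 0 in control rat 5. Evx1 was listed at 0 in all libraries, and Calcoco1 and Calcoco2, which most cells use, had at most 0.0235 and 0.0253 CPM.

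Some markers of other regions were high in the 2 libraries with the most Hox, and others were not. Of the 6 genes of the pontine grey list, all had 1 CPM or more in chronic ethanol rat 8 and control rat 5, and 5 or 6 in every other library. Neurons of the pontine grey arise at the rear edge of the hindbrain, migrate forwards and relay cortical signals to the cerebellum. The summed level of the list was 136 to 926 CPM in withdrawal rats, 99.3 to 638 CPM in chronic ethanol rats and 119 to 783 CPM in control rats. The highest sums were those of withdrawal rat 13 (926 CPM), chronic ethanol rat 8 (638 CPM) and control rat 5 (783 CPM). Barhl1, a homeobox gene of neurons born at the rhombic lip, told these apart, with 0.270 CPM in withdrawal rat 13, 23.5 CPM in chronic ethanol rat 8 and 28.4 CPM in control rat 5. In the remaining libraries Barhl1 was 0.970 to 1.76 CPM in withdrawal rats, 0.240 to 1.54 CPM in chronic ethanol rats and 0.444 to 0.607 CPM in control rats. Barhl1 thus singled out the same 2 libraries as the Hox genes. Zic1, a zinc finger factor of the same lineages, was at 78.3 CPM in chronic ethanol rat 8 and 92.9 CPM in control rat 5, and at most 31.0 CPM elsewhere. Slc17a7, a vesicular glutamate transporter, was at 409 and 509 CPM in those 2 rats, 810 CPM in withdrawal rat 13 and at most 23.8 CPM elsewhere. Etv1, of the same list, was not set apart, with 76.6 and 78.4 CPM in rats 8 and 5 and 43.7 to 105 CPM elsewhere.

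The cerebellar granule cell list summed to 207 CPM in chronic ethanol rat 8 and 213 CPM in control rat 5, with 6 and 4 of its 6 genes at 1 CPM or more, and to 320 CPM in withdrawal rat 13, against 81.9 to 127 CPM elsewhere. Members of this list differed. Gabra6, a subunit of the GABA-A receptor of granule cells, was at 6.00 CPM in chronic ethanol rat 8 and 0.803 CPM in control rat 5. Elsewhere Gabra6 was at most 3.51 CPM. Fat2, also of this list, did set rats 8 and 5 apart, at 40.3 and 41.2 CPM against at most 4.20 CPM elsewhere. The list of 9 hindbrain patterning genes did not follow the Hox genes, with 8.18 CPM in chronic ethanol rat 8, 4.63 CPM in control rat 5 and 7.86 to 35.9 CPM elsewhere. Noradrenaline neuron markers also did not: the 4 genes summed to 11.4 CPM in chronic ethanol rat 8, 0.260 CPM in control rat 5 and 0 to 43.3 CPM elsewhere. In control rat 5 Dbh, the enzyme that makes noradrenaline, had 0.0472 CPM, which is under the floor. Control rat 5 had the lowest level of all libraries in the serotonin neuron list (8.36 CPM) and the Purkinje cell list (9.72 CPM), and 24.3 CPM in the motor neuron list, against 19.5 to 282 CPM in the other 17. In chronic ethanol rat 8 these lists were at 27.7, 18.3 and 34.4 CPM. The summed level of the midbrain patterning list was 20.01 CPM in chronic ethanol rat 8 and 37.2 CPM in control rat 5. It was 14.4 CPM in withdrawal rat 17, the only library below these, and 46.5 to 132 CPM in the remaining libraries. The cortex and hippocampus list summed to 28.4 CPM in chronic ethanol rat 8 and 39.8 CPM in control rat 5, against 2.02 to 5.44 CPM elsewhere. Only 1 of its 6 genes was at 1 CPM or more in each of these 2 rats. The part of each of these regions in the Hox signal was not tested.

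Withdrawal rat 17, whose Hox signal leaned to group 2, was the lowest of all libraries in dopamine neuron genes and the highest in noradrenaline and glycine neuron genes. Th, which makes the precursor of dopamine, was at 17.6 CPM in this rat, and Slc6a3, the dopamine transporter, at 2.56 CPM. The noradrenaline list summed to 43.3 CPM in this rat and to at most 18.4 CPM in the other 17 libraries, with all 4 genes at 1 CPM or more. Dbh was at 23.5 CPM. The 2 glycine neuron genes, Slc6a5 (the glycine transporter of nerve endings) and Glra1 (a glycine receptor subunit), summed to 514 CPM, against 57.0 to 214 CPM in the others. Barhl1 was at 1.32 CPM and the pontine grey list at 168 CPM. The lowest dopamine markers thus came with 5.89 CPM of Hox groups 2 to 5 in withdrawal rat 17 and 80.6 CPM in chronic ethanol rat 8, while control rat 5, with the most Hox, had 237 CPM of Th, close to control rat 1 (233 CPM), which had almost no Hox signal. The part of these cell types in the result was not tested.

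**Figure D4:**
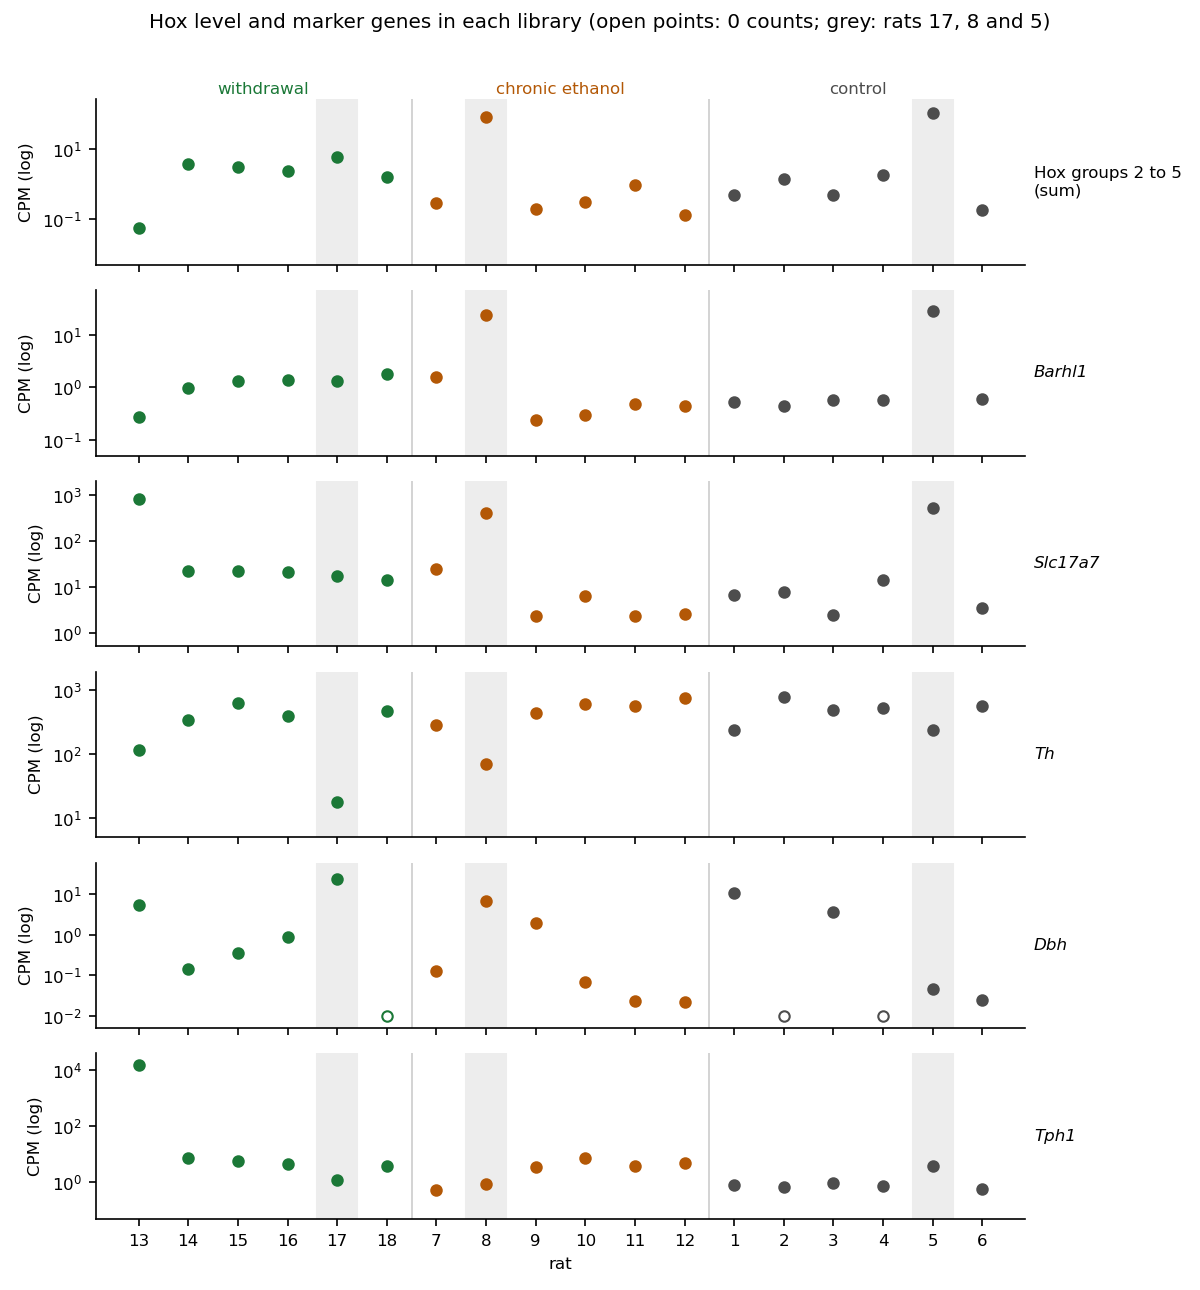
Summed CPM of Hox groups 2 to 5 and CPM of Barhl1, Slc17a7, Th, Dbh and Tph1 in each rat, on log axes, with withdrawal rats at the left, chronic ethanol rats in the middle and control rats at the right (1 point per rat, grey bands mark rats 17, 8 and 5). Barhl1 is highest in the same 2 rats as the Hox sum, rats 8 and 5, while Tph1 and Slc17a7 are highest in withdrawal rat 13, which has almost no Hox.

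Hox cofactors and regulators were expressed in every library and did not set the 2 high libraries apart as a group. The 9 TALE homeobox genes, the Pbx, Meis and Pknox families, were all at 1 CPM or more in all 18 libraries. Their summed level was 304 to 445 CPM in withdrawal rats, 318 to 436 CPM in chronic ethanol rats and 318 to 403 CPM in control rats. Meis1, a cofactor of Hox proteins, was the exception, with 32.6 CPM in withdrawal rat 17, 35.9 CPM in chronic ethanol rat 8 and 34.7 CPM in control rat 5, against 11.1 to 21.9 CPM elsewhere. Meis2 was highest in withdrawal rat 17 (106 CPM) and low in control rat 5 (15.3 CPM). Cyp26b1, which breaks down retinoic acid, had its highest levels in chronic ethanol rat 8 (73.8 CPM) and control rat 5 (60.6 CPM), against 7.76 to 53.7 CPM elsewhere. The Polycomb and trithorax list of 20 genes summed to 1138 CPM in chronic ethanol rat 8 and 1164 CPM in control rat 5, within the 1049 to 1534 CPM of the other libraries.

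The genes whose level ranked libraries most like the summed Hox level over all 18 libraries were Secisbp2l (Spearman rho 0.946), Lrrn1 (0.940) and Mapk1ip1 (0.920), over genes that averaged 1 CPM or more. The next 7 were St3gal4, Cpd, Ttll7, Jakmip3, Anln, Cldnd1 and Lmbrd1, with rho of 0.915 to 0.895. With rats 8 and 5 left out, 5 of these 10 were again among the 10 highest over the remaining 16 libraries. All 10 had their lowest level in withdrawal rat 13, which also had the lowest Hox sum, so the points share a library of unusual make-up. Lrrn1, a leucine-rich repeat protein of the neuron surface, was the one of the first 3 that also separated the high libraries, with 225 CPM in chronic ethanol rat 8 and 247 CPM in control rat 5, against 61.2 to 142 CPM elsewhere.

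The 3 groups were then compared to ask whether the Hox level followed the diet. By edgeR's quasi-likelihood test over all 18 libraries, 5 members had enough counts to be tested (Hoxb2, Hoxb3, Hoxc4, Hoxd1 and Hoxd4), of 17637 genes. With a Benjamini-Hochberg adjusted p of 0.05 as the limit, none of the 5 was called in withdrawal against control, withdrawal against chronic ethanol, chronic ethanol against control, or for any difference among the groups, where 0% of all genes were called in each. None of the 5 had an unadjusted p under 0.05 either, which 9.82, 15.3, 5.84 and 11.5% of all genes had in the same order. DESeq2 called 47, 301, 46 and 298 genes in these comparisons, none of them a Hox gene, and gave 4 of the 5 members no p because of outlying counts.

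Rats 8 and 5 held most of the counts behind the group means. Hoxc4 averaged 0.286 ± 0.236 CPM in withdrawal rats, 2.02 ± 4.88 CPM in chronic ethanol rats and 3.34 ± 7.95 CPM in control rats (SD, n = 6 each). Its log2 change was -3.53 ± 1.84 (SE) for withdrawal against control (edgeR adjusted p = 0.534), with 5 of 6 withdrawal rats above the control median of 0.0619 CPM. Its log2 change was -2.80 ± 1.82 for withdrawal against chronic ethanol (edgeR adjusted p = 0.454). Hoxb3 averaged 1.01 ± 0.640 CPM in withdrawal rats, 5.21 ± 12.5 CPM in chronic ethanol rats and 5.51 ± 12.7 CPM in control rats (SD, n = 6 each). The means were thus highest in control rats, while the medians were highest in withdrawal rats. Hoxb3 had a log2 change of -2.45 ± 1.68 for withdrawal against control (edgeR adjusted p = 0.599) and Hoxd4 one of -2.95 ± 1.71 (edgeR adjusted p = 0.554).

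In withdrawal against chronic ethanol the changes of Hoxb3 and Hoxd4 were -2.37 ± 1.67 and -2.14 ± 1.69 (SE; edgeR adjusted p = 0.489 and 0.542). For chronic ethanol against control the 3 members with the lowest p were Hoxd1 (-0.24 ± 0.38), Hoxd4 (-0.81 ± 1.54) and Hoxc4 (-0.73 ± 1.59), each with an edgeR adjusted p of 0.999. All 5 tested members had a negative log2 change in all 3 comparisons, with a median of -2.45 for withdrawal against control, -2.14 for withdrawal against chronic ethanol and -0.24 for chronic ethanol against control. The median over all genes tested was 0.01, 0.02 and -0.00 in the same order. These comparisons share groups, so their directions are not independent. With the first sequencing index as a term, over the same 18 libraries, all 5 members turned to a positive log2 change in all 3 comparisons. Because index and group overlap, that fit set chronic ethanol rats 7 and 8 alone against the control rats. It set withdrawal rats 13 to 16 against chronic ethanol rats 9 to 12, and added both changes for withdrawal against control. Hoxc4 was then at 4.86 ± 3.38 (SE) for withdrawal against control (edgeR adjusted p = 0.793), and none of the 5 was called.

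Without chronic ethanol rat 8 and control rat 5, 3 members were tested (Hoxb2, Hoxb3 and Hoxd1). Hoxb2 and Hoxb3 turned to a positive change in both withdrawal comparisons and Hoxd1 in that against chronic ethanol, while all 3 stayed negative for chronic ethanol against control. These 2 libraries were left out for their Hox level, and none from the withdrawal group was, so the p-values without them are not free of the outcome and the counts below are a description. For withdrawal against chronic ethanol the log2 change of Hoxb3 was 3.03 ± 0.836 (edgeR adjusted p = 0.181) and that of Hoxb2 2.55 ± 1.04 (edgeR adjusted p = 0.284). For withdrawal against control they were 1.59 ± 0.746 (edgeR adjusted p = 0.515) and 2.24 ± 1.03 (edgeR adjusted p = 0.507). No member passed the adjusted threshold, which 0.017% of 17649 genes passed for withdrawal against chronic ethanol and 0% for the other 2 comparisons. At an unadjusted p under 0.05 there were 2 of 3 members in each withdrawal comparison, against 15% of all genes for withdrawal against chronic ethanol and 9.66% for withdrawal against control. For chronic ethanol against control there were 0 of 3, against 5.67% of all genes.

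With the filter on low counts also removed, 21 members could be tested for withdrawal against chronic ethanol, and 6 had an unadjusted p under 0.05, against 11.7% of all genes. This fit was chosen after seeing the data and also lacks rats 8 and 5. Its p-values for the members are thus not free of the outcome, and the numbers are a description, not an excess over all genes. For withdrawal against control there were 2 of 21, against 8.38% of all genes, and for chronic ethanol against control 1 of 21, against 4.73%. The 6 were Hoxd4, Hoxb3, Hoxc4, Hoxd3, Hoxb2 and Hoxd13, all higher in withdrawal rats, and none passed after adjustment. The lowest p was that of Hoxd4, with 7 to 22 counts in withdrawal rats 14 to 18 and 1 in rat 13, against 0 to 2 in the 5 chronic ethanol rats (log2 change 3.81 ± 0.852, edgeR adjusted p = 0.225).

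**Figure D5:**
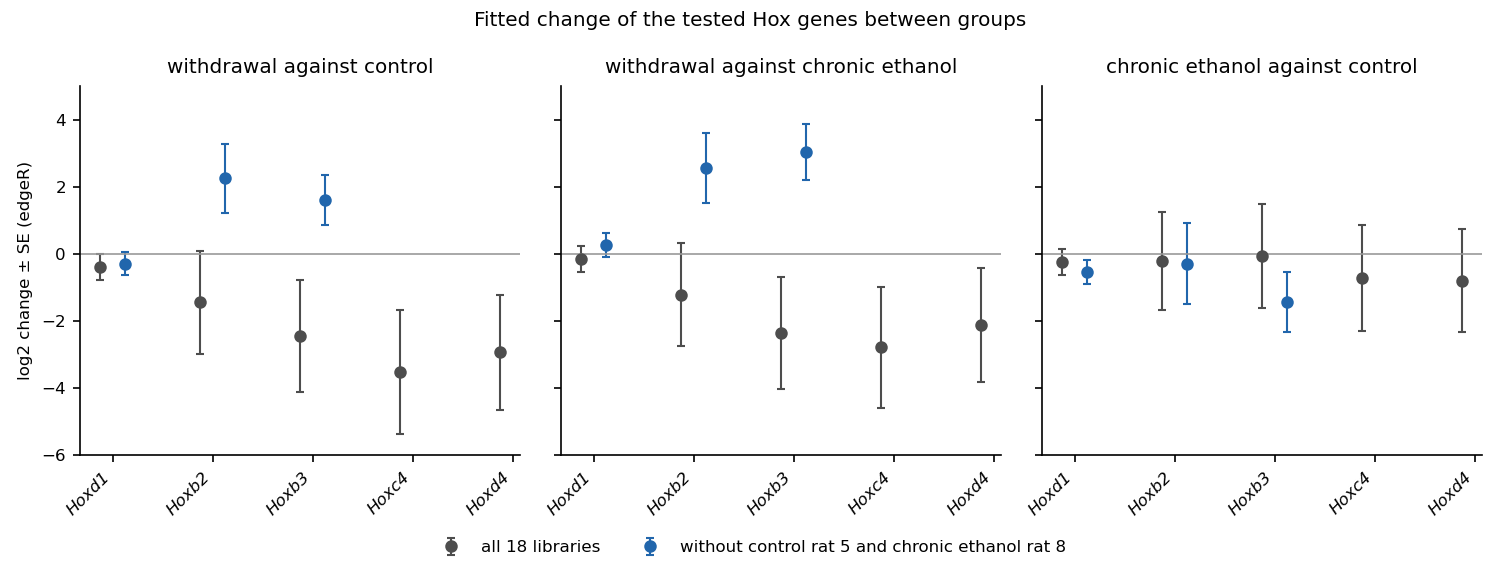
Log2 change ± SE of the tested Hox genes in each comparison, fitted with edgeR to all 18 libraries (grey) and without chronic ethanol rat 8 and control rat 5 (blue, 3 genes tested). Hoxb2 and Hoxb3 lie below 0 in the withdrawal comparisons with all libraries and above 0 without the 2 rats, and Hoxd1 stays near 0.

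The first sequencing index of the libraries, as their names give it, overlapped with the groups, so the low Hox level was also read within an index. Withdrawal rats 13 to 16 and chronic ethanol rats 9 to 12 share 1 index. There the summed level of groups 2 to 5 was 0.0540, 3.77, 3.17 and 2.40 CPM in withdrawal rats and 0.192, 0.301, 0.945 and 0.133 CPM in chronic ethanol rats. Withdrawal rats 14 to 16 lay above all 4 chronic ethanol rats and rat 13 below them. Chronic ethanol rats 7 and 8 share an index with all control rats, and withdrawal rats 17 and 18 have one to themselves. The libraries that share the first index of rats 8 and 5 (rats 1 to 4, 6 and 7) had 0.177 to 1.86 CPM. Of the libraries with the second index of control rat 5 and chronic ethanol rat 8, withdrawal rat 13 had 0.0540 CPM and withdrawal rat 16 had 2.40 CPM. The pontine grey list followed the low Hox level only in part. Slc17a7, one of its genes, was 14.2 to 22.4 CPM in withdrawal rats 14 to 18. It was 2.24 to 23.8 CPM in chronic ethanol rats other than rat 8 and 2.46 to 14.3 CPM in control rats other than rat 5. The list summed to 136 to 168 CPM in withdrawal rats 14 to 18. It was at 174 CPM in chronic ethanol rat 7, which had 0.286 CPM of Hox groups 2 to 5. The part of this list in the result was not tested.

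The gene lists around the Hox system were counted in the same fit. None of the 9 tested TALE cofactors, 11 of 17 listed retinoic acid and upstream genes, 20 Polycomb and trithorax genes or 10 of 14 flanking genes passed in any comparison by edgeR, where 0% of all genes passed. For withdrawal against control, 4 cofactors lay higher and 5 lower (median log2 change -0.00), 5 retinoic acid genes higher and 6 lower (-0.02), 17 Polycomb and trithorax genes higher and 3 lower (0.12), and 3 flanking genes higher and 7 lower (-0.06), against 0.01 for all genes tested. The Polycomb and trithorax sum was 1534 CPM in withdrawal rat 13, 1116 to 1170 CPM in the other 5 withdrawal rats and 1049 to 1164 CPM in control rats. At an unadjusted p under 0.05 there were 1, 2, 3 and 1 genes in the same lists, or 1 of 9, 2 of 11, 3 of 20 and 1 of 10, where 9.82% of all genes had one. In the same comparison all 10 dopamine neuron genes lay lower, with a median log2 change of -0.39, and none passed. Their sum was 410 CPM in withdrawal rat 17, 1074 CPM in withdrawal rat 13. Withdrawal rats 14, 15, 16 and 18 lay between 1619 and 3021 CPM, which is within the 1176 to 3630 CPM of control rats. The part of rats 17 and 13 in this difference was not tested.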

How the data were processed

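RNA of 18 rat libraries was analysed from the counts of read pairs per gene that the authors deposited. Per the file headers these counts were made with featureCounts 1.5.0 on the reverse strand, by exon and gene, without pairs that match several places or several genes and without pairs split between chromosomes. The submitters' processing notes name STAR 2.5.2a, R 3.3.3, limma and Rnor_6.0. All values are whole, and totals differ between libraries (29.6 to 45.1 M). Gene identifiers were matched to rat symbols with a RefSeq table of GRCr8, used for names only, which named 29322 of 38445. Gene positions are on Rnor_6.0, as the files list them, and promoters on GRCr8.

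Counts were scaled with TMM factors, filtered with filterByExpr and tested two-sided with edgeR 4.0.16 (quasi-likelihood, R 4.3.3) over all 18 libraries and all genes, with Benjamini-Hochberg adjustment. A gene was called at an adjusted p under 0.05. The SE was derived from the F statistic and the log2 change. RPKM used the exon length in the files. The likeness rule took the 10 genes with the highest Spearman rho. Named members are those with 1 CPM in some library and, per comparison, the 3 with the lowest p. The fit was tested on simulated data. The alternatives were RLE factors, library size alone, other filters, DESeq2 1.42.0, only the groups compared, the first index as a term, and libraries left out. Each library is 1 rat, so p-values measure the spread between rats. The members and lists were chosen with earlier results of these data known. Tables and figures were made with Python 3.11.15 and matplotlib 3.10.9.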

Additional observations from a re-analysis of the deposited data

Results flagged for a closer look

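Of 27 sets of 6 values (8 Hox genes and the Hox sum, each in 3 groups), 19 held a library with a gap to its group that passed Dixon's 95% value. The 8 genes were taken because they reached 1 CPM in some library, which Hoxd3, Hoxb4, Hoxc4, Hoxd4 and Hoxb5 did only in rats 8 and 5. The sets also share libraries. The number flagged is thus a description and cannot be set against the 1 in 20 sets that chance gives. In chronic ethanol, rat 8 stood apart for Hoxb2 (9.45 CPM), Hoxb3 (30.7 CPM), Hoxd3 (10.4 CPM), Hoxb4 (3.69 CPM), Hoxc4 (12.0 CPM), Hoxd4 (10.7 CPM), Hoxb5 (3.22 CPM), Hoxd1 (1.93 CPM) and the Hox sum (82.9 CPM). In control, rat 5 stood apart for Hoxb2 (10.9 CPM), Hoxb3 (31.4 CPM), Hoxd3 (13.6 CPM), Hoxb4 (5.69 CPM), Hoxc4 (19.6 CPM), Hoxd4 (18.3 CPM), Hoxb5 (7.62 CPM) and the Hox sum (109.9 CPM), but not for Hoxd1. In withdrawal, rat 17 stood apart for Hoxb2 (2.56 CPM) and rat 14 for Hoxb5 (0.200 CPM, 7 counts).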

How the results depend on the processing

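No Hox gene was called in any comparison with RLE factors, library size alone, no filter, DESeq2, only the groups compared, the index as a term, or any 1 library left out (0 to 0 calls). With RLE factors, library size alone or no filter, no gene at all was called. DESeq2 gave 4 of the 5 tested members no p. Fits of only the groups compared tested 2 or 3 members and called at most 2 of all genes. The index as a term called at most 2 of all genes, and leaving out 1 library at most 24. The absence of Hox calls in these settings is therefore a weak check. With a filter of 1 CPM in 6 libraries no Hox gene could be tested. The direction of the named log2 changes was not stable. With the first index as a term all 9 turned: for chronic ethanol against control to 0.26 (Hoxd1), 0.76 (Hoxd4) and 0.84 (Hoxc4), for withdrawal against control to 4.86 (Hoxc4), 4.54 (Hoxd4) and 4.20 (Hoxb3), and for withdrawal against chronic ethanol to 4.02 (Hoxc4), 2.72 (Hoxb3) and 3.78 (Hoxd4). Without chronic ethanol rat 8 and control rat 5, Hoxb3 turned to 3.03 against chronic ethanol and 1.59 against control. With no filter besides (chosen after seeing the data) the values were 3.04 and 1.59 for Hoxb3, 3.10 and 1.57 for Hoxc4 and 3.81 and 1.80 for Hoxd4. Leaving out 1 library gave ranges of -3.95 to 1.58 (Hoxc4), -3.21 to 1.80 (Hoxd4) and -2.75 to 1.59 (Hoxb3) for withdrawal against control, -3.22 to 3.11, -2.40 to 3.83 and -2.68 to 3.03 for withdrawal against chronic ethanol, and -6.64 to 4.38 (Hoxc4), -6.77 to 3.94 (Hoxd4) and -0.65 to -0.10 (Hoxd1) for chronic ethanol against control. The positive ends are those without control rat 5 or without chronic ethanol rat 8. Chronic ethanol rat 8 and control rat 5 held 7 to 9 members at 0.5 CPM, 2 CPM or 1 RPKM. The highest number in any other library was 5 at 0.5 CPM and 1 at 1 RPKM, against 2 at 1 CPM. The Hox sum of chronic ethanol rat 8 was 81.7 CPM with library size alone and 82.6 CPM with RLE factors, and that of control rat 5 was 108 and 109 CPM. No paired analysis was possible because no number or animal links rats across the 3 groups. At these depths a level under about 0.1 CPM cannot be told from 0. With the index as a term, chronic ethanol against control rested on rats 7 and 8 against the control rats. Withdrawal against chronic ethanol rested on rats 13 to 16 against rats 9 to 12. Withdrawal against control was the sum of these changes, so the values do not compare the same rats as the main fit. An effect of the index on the Hox level was not tested.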

Other observations

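Genes that stood out in chronic ethanol rat 8 and control rat 5 as the Hox genes did were listed after the values were seen, with no test. Among genes that averaged 1 CPM or more over the 18 libraries and are no Hox members, 17 met this description: the lower of the 2 libraries was at least 5-fold above the highest of the other 16. Neuron genes among them were Neurod2, a helix-loop-helix factor of glutamate neurons (27.3 CPM in chronic ethanol rat 8, 35.2 CPM in control rat 5 and at most 1.94 CPM elsewhere), Neurod6 of the same family (26.7, 38.4 and at most 4.02 CPM in the same order), Barhl1 (23.5, 28.4 and at most 1.76 CPM) and Fat2, a large cadherin of cerebellar granule cells (40.3, 41.2 and at most 4.20 CPM). Pappa2, a protease that cleaves proteins that bind insulin-like growth factor, was at 41.7 and 70.3 CPM and at most 4.96 CPM elsewhere. Duox2, an oxidase that makes hydrogen peroxide, had the widest gap, with 23.1 and 21.4 CPM against at most 0.903 CPM. Others were Tmem72, Ccdc27, Clcn1, Itga11, Nppc, Myh8, Medag, Lrat, Sdc1 and Mroh5. Lrat, which stores vitamin A as its ester, was at 20.4 and 24.2 CPM and at most 3.54 CPM elsewhere.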
